A study of Mus musculus with 72 samples.

Results

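MicroRNAs (miRNAs) were compared between the lungs of mice given 4 Gy of total-body X-rays and the lungs of sham irradiated mice (0 Gy), 48 h after exposure. The arrays were chosen by their titles, which name the lung, the dose and miRNA, and this gave 6 of the 72 arrays of the series, 3 at each dose, 1 array per mouse. All mice were female C57BL/6 J, 6 to 8 weeks old at exposure, with no genetic alteration named in the labels. The 4 Gy mice (numbers 4, 14 and 24) received a single exposure at 1.05 Gy/min, while the 0 Gy mice (numbers 1, 11 and 21) were handled alike without the beam. The whole animal was exposed, so that the lung, its resident blood and the bone marrow were irradiated together. Total RNA of whole lung was hybridized to 1-colour Agilent mouse miRNA arrays with probes for 1881 mouse miRNAs. Of these, 418 had a probe well above its local background on at least 1 of the 18 lung arrays of all doses and were tested, and 1463 did not and were not tested. Values below are log2 normalized intensities, in which a difference of 1 is a 2-fold change. They compare 1 miRNA between arrays and not 1 miRNA with another.

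A miRNA is a short RNA that guides Argonaute proteins to messenger RNAs, mainly through its seed, the bases from position 2 to position 8, and lowers their stability or translation. Ionizing radiation activates the transcription factor p53, and the gene for miR-34a is among its direct targets, while the products of miR-34a repress cell cycle and survival genes. Other miRNAs are abundant in 1 kind of cell: miR-142a and miR-223 in blood-derived cells, miR-150 in mature lymphocytes, miR-451a in red cells, miR-126a in endothelium and miR-200 in epithelium. Lymphocytes and erythroid precursors are known to be sensitive to radiation. In whole-lung RNA, fewer cells of a type and less RNA per cell cannot be told apart.

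The sequences below are those of miRNAs with the largest changes and of seed relatives that moved less, written 5′ to 3′ from RefSeq (build GRCm38.p6) with the seed in capitals.
miR-34a-5p: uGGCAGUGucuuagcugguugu
miR-34b-5p: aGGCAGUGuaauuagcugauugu
miR-449a-5p: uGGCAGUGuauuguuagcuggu
miR-34a-3p: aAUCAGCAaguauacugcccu
miR-142a-5p: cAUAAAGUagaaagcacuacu
miR-142a-3p: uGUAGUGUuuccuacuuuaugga
miR-130b-3p: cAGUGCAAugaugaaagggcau
miR-130a-3p: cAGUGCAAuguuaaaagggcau
miR-301a-3p: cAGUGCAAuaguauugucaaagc
miR-128-3p: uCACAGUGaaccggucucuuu
miR-223-3p: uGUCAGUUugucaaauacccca
miR-155-5p: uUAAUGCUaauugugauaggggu
miR-15b-5p: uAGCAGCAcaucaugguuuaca
miR-16-5p: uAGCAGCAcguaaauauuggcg
The 2 arms of miR-34a lie at chr4:150068473-150068494 and chr4:150068517-150068537, both on the plus strand. The 2 arms of miR-142a lie at chr11:87756867-87756887 and chr11:87756903-87756925 on the plus strand. The mature miR-130b-3p lies at chr16:17124071-17124092 on the minus strand, within the bounds of 2610318N02Rik, and miR-223-3p at chrX:96242884-96242905 on the plus strand, within the bounds of F630028O10Rik. The mature miR-128-3p comes from 2 loci, within the bounds of R3hdm1 on chromosome 1 and of Arpp21 on chromosome 9.

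The 2 doses were not hybridized side by side. All 3 control arrays lay on 1 slide with the 1 Gy arrays, whereas the array of 4 Gy mouse 4 lay on another slide and those of mice 14 and 24 on yet another, so within lung slide and dose cannot be told apart. The control slide was also brighter: the median spot signal ran from 68.5 to 105 on the control arrays and from 40 to 44 on the 4 Gy arrays, over local backgrounds of 31 to 41 and 22 to 25.5. Between 249 and 339 of the 418 miRNAs were above background on a control array, and between 369 and 382 on a 4 Gy array. Over the tested miRNAs, arrays of 1 dose correlated at 0.989 to 0.993 (0 Gy) and 0.995 to 0.998 (4 Gy), and arrays of different doses at 0.983 to 0.996. The median log2 fold change over all tested miRNAs was 0.15 rather than 0. It was 0.08 over the 248 miRNAs above background on all 6 arrays and 0.24 over the others, so a small positive value in what follows should be read against these medians. In the main model, P values rest on the spread between mice of the same dose, pooled over all 18 lung arrays, and make no allowance for slide.

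The lung of 4 Gy mouse 24 stood apart in several hepatocyte RNAs, though not in all of those examined. The hepatocyte miRNA miR-122-5p read 6.21, 6.45 and 7.03 in the controls and 5.77, 5.76 and 9.83 in mice 4, 14 and 24. On the mRNA arrays Alb, the gene of serum albumin, read 8.36, 10.52 and 11.85 in the controls and 8.04, 8.34 and 14.79 at 4 Gy, again high in mouse 24. Fgb, a fibrinogen chain, read 13.12 in mouse 24 and 5.32 and 5.53 in the other irradiated mice. Apoa1 and Ahsg were also highest in mouse 24, at 10.52 and 13.33. Ttr was not: its brightest probe was highest in control mouse 1 (11.38) and gave no value in mouse 24. Its other probe read 5.91 in mouse 1 and 5.83 in mouse 24. The miRNAs miR-192-5p and miR-194-5p ran only from 8.79 to 8.98 and from 8.04 to 8.21 at 4 Gy. Without mouse 24 the changes described next were 0.89 for miR-34a-5p, -1.64 for miR-142a-5p, -1.53 for miR-142a-3p, -1.10 for miR-150-5p and -0.82 for miR-130b-3p, each with adjusted p of 8.21e-04 or less.

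At 4 Gy, 3 miRNAs passed both thresholds, a change of more than 2-fold and an adjusted p below 0.05, and all 3 were lower. They were both arms of miR-142a and miR-150-5p, which are miRNAs of blood-derived cells, and they make up 0.718% of the miRNAs tested (limma with Benjamini-Hochberg adjustment). At any fold, 45 miRNAs passed adjusted p below 0.05, or 10.8%. Of these, 27 were higher (6.46%) and 18 lower (4.31%), and an unadjusted p below 0.05 was reached by 145. The lower and the higher set were measured unequally well. All 18 lower miRNAs were above background on all 6 arrays, whereas 8 of the 27 higher ones were. The number also leans on single mice: without control mouse 11 it was 129 (111 higher and 18 lower), and without control mouse 21 or any 1 of the 4 Gy mice it was between 12 and 16, while the count past both thresholds stayed between 3 and 5. With all arrays scaled to a common median instead of quantile-normalized, 7 were higher and 202 lower, so the balance of directions is set in part by the scaling.

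**Figure D1:**
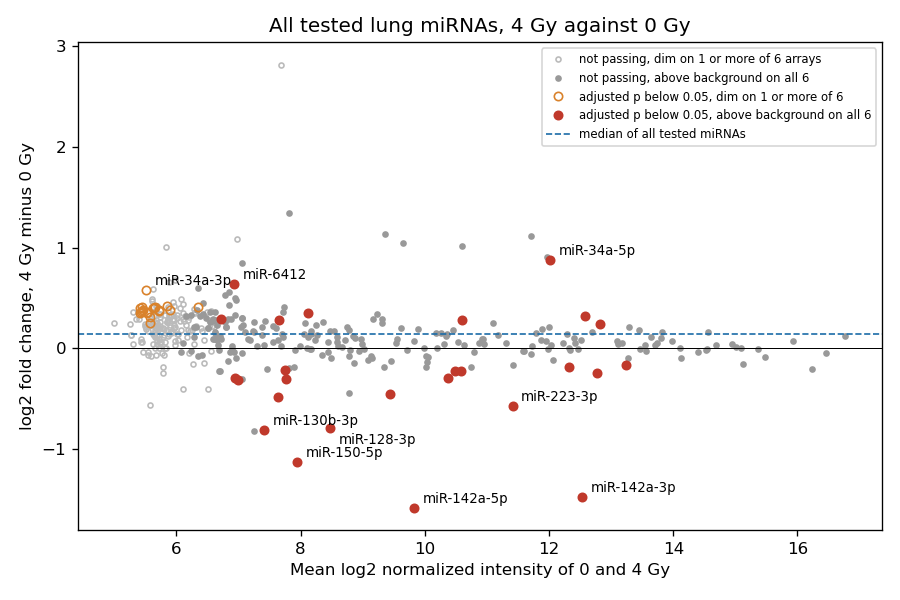
Each point is 1 of the 418 tested miRNAs, with its mean log2 intensity over the 6 arrays on the horizontal axis and its log2 fold change (4 Gy minus 0 Gy) on the vertical axis. The 3 miRNAs past both thresholds lie below -1, miR-34a-5p is the highest bright miRNA to pass, and most of the higher ones crowd at the dim end.

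The level of miR-142a-5p was 10.49, 10.58 and 10.78 in 0 Gy mice 1, 11 and 21, and 8.90, 9.06 and 9.15 in 4 Gy mice 4, 14 and 24. Every irradiated lung lay well below every control, and the gap between the doses was several times the spread within either. The log2 fold change was -1.58 (SE 0.11, adjusted p = 2.1e-07), or 2.99-fold lower. The other arm, miR-142a-3p, stood at 13.08, 13.30 and 13.44 at 0 Gy and at 11.59, 11.89 and 11.91 at 4 Gy. It was 2.78-fold lower, with a log2 fold change of -1.47 (SE 0.11, adjusted p = 4.05e-07). Both arms come from the same hairpin, so they are not separate observations of a change in that locus, but they are read by different probes and moved by nearly the same amount.

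The lymphocyte miRNA miR-150-5p stood at 8.30, 8.55 and 8.66 at 0 Gy. At 4 Gy it was 7.40, 7.40 and 7.33, the tightest group of the 3 called miRNAs. Its log2 fold change was -1.13 (SE 0.10, adjusted p = 1.11e-06), which is 2.18-fold lower. These 3 miRNAs and miR-130b-3p passed in 20 of 21 alternative settings, and failed when the processed signal was scaled to the 75th percentile of all probes (adjusted p = 0.393). Their directions held there too, with miR-142a-5p at -1.18, miR-142a-3p at -0.98 and miR-150-5p at -0.91.

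Among the lower miRNAs short of a 2-fold change, miR-130b-3p changed most. Its levels were 7.87, 7.61 and 7.95 at 0 Gy and 7.05, 6.93 and 7.04 at 4 Gy, with no overlap. The log2 fold change was -0.81 (SE 0.11, adjusted p = 1.35e-04), or 1.75-fold lower. Its seed relatives, printed above with the same capitals, did not pass: miR-130a-3p differed by 0.05 (adjusted p = 0.456) and miR-301a-3p by 0.00 (adjusted p = 0.981), both well above background on all 6 arrays. The last tested member of that seed, miR-721, differed by 1.00 (adjusted p = 0.12) and was not above background in any control.

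The next 2 lower miRNAs had a wider spread in the controls. For miR-128-3p the control values were 9.36, 8.32 and 8.93, and the 4 Gy values 8.10, 7.92 and 8.24. The irradiated mice were all lower, but control mouse 11 was only just above them. The log2 fold change was -0.79 (SE 0.19, adjusted p = 0.021). The myeloid miRNA miR-223-3p, a regulator of granulocytes, went from 11.93, 11.69 and 11.47 to 11.15, 11.01 and 11.22. The doses did not overlap, and the log2 fold change was -0.57 (SE 0.14, adjusted p = 0.0219). Of 21 alternative settings, miR-128-3p failed in 7 and miR-223-3p in 6, without a change of sign.

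A further 4 lower miRNAs among the 10 with the largest decreases were miR-1949 (-0.48), miR-3473g (-0.46), miR-155-5p (-0.31) and miR-340-5p (-0.30), with adjusted p between 0.00279 and 0.0312. With all-probe scaling miR-3473g and miR-340-5p turned to 0.0049 and 0.084. The immune-response miRNA miR-155-5p is the one whose 2 probes disagree, with log2 fold changes of -0.14 and -0.49, of which only the latter passed when probes were set apart (adjusted p = 0.316 and 0.00242). The remaining 8 lower miRNAs ranged from -0.30 for miR-202-3p to -0.17 for miR-16-5p.

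**Figure D2:**
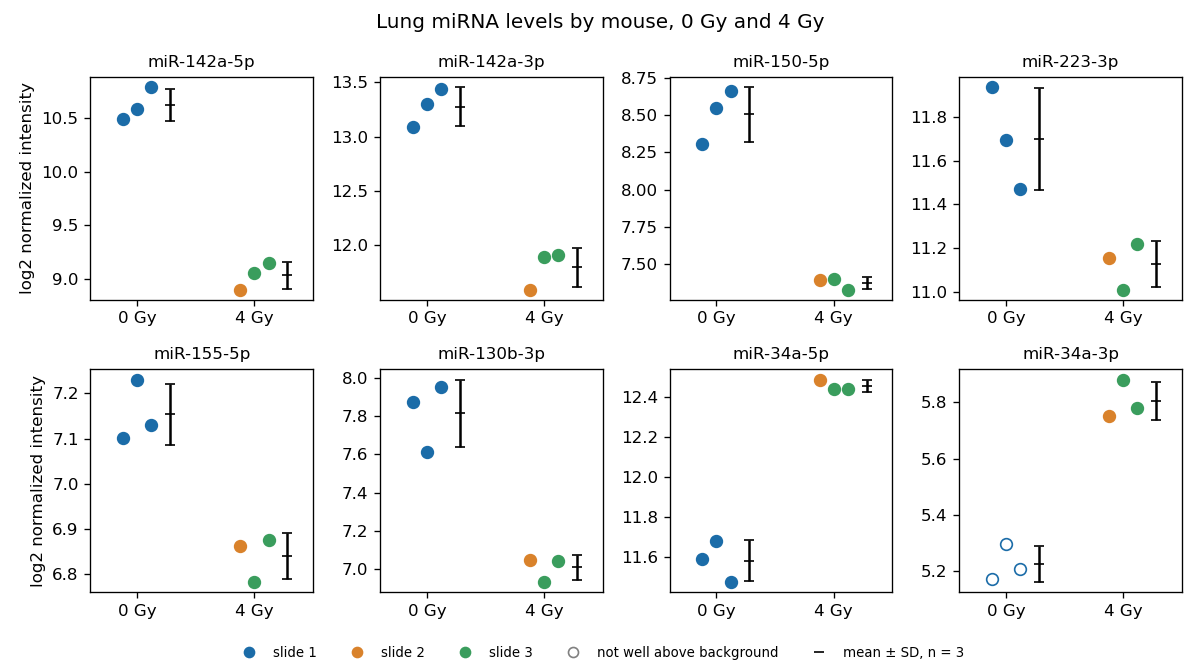
Log2 normalized intensity of named miRNAs in each mouse, 0 Gy and 4 Gy, with 1 point per mouse coloured by slide, open where the probe was not well above background, and the mean ± SD of 3 mice beside them. The 3 irradiated lungs lie below the 3 controls for miR-142a-5p, miR-142a-3p and miR-150-5p and above them for miR-34a-5p.

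Among the higher miRNAs that passed adjusted p below 0.05, miR-34a-5p had the largest change. It stood at 11.59, 11.68 and 11.47 at 0 Gy, and at 12.49, 12.44 and 12.44 at 4 Gy. The irradiated mice were nearly identical and all above the controls. The log2 fold change was 0.88 (SE 0.06, adjusted p = 2.1e-07), or 1.84-fold higher, and both of its probes gave 0.88. It failed in 2 of 21 alternative settings, namely with all-probe scaling (1.35, adjusted p = 0.393) and with a slide term over 36 lung and liver arrays (0.60, adjusted p = 0.271). The opposite arm of the hairpin, miR-34a-3p, was dim: 5.17, 5.30 and 5.21 at 0 Gy and 5.75, 5.88 and 5.78 at 4 Gy. It was above background in all 3 irradiated lungs and in no control, so its fold is a bound, at least 1.09-fold higher, beside a fitted log2 fold change of 0.58 (adjusted p = 2.01e-05), which turns to -0.32 with median scaling. Such a bound sets the irradiated mean against the lowest signal that counted as well above background on each control array, or against the dim probe's own value where that was higher.

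The relatives that share the miR-34 seed did not pass. The log2 fold change was 0.21 for miR-34b-5p (adjusted p = 0.196), 0.25 for miR-449a-5p (adjusted p = 0.22) and 0.31 for miR-449c-5p (adjusted p = 0.191). These miRNAs are known from ciliated epithelium, and none of the 3 separated the doses completely. Their relative miR-34c-5p, for which no RefSeq sequence was at hand, did not pass either. Its means were 11.88 at 0 Gy and 12.10 at 4 Gy, with overlap. The list of p53-linked miRNAs held 12 tested members. Of these, both arms of miR-34a rose, miR-16-5p fell by 0.17 (adjusted p = 0.0473, though it turned with all-probe scaling) and 9 did not pass, beside 6.46% higher and 4.31% lower among all miRNAs tested. Those that did not pass include miR-34c-3p at 0.42 (adjusted p = 0.0997), miR-34b-3p at 0.48 (adjusted p = 0.0806) and miR-192-5p at 0.19 (adjusted p = 0.0818). The median of the list was 0.20, against 0.15 over all miRNAs tested.

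Of the other higher miRNAs above background on all 6 arrays, miR-6412 went from 6.33, 6.81 and 6.70 to 7.09, 7.39 and 7.28, a log2 fold change of 0.64 (SE 0.12, adjusted p = 0.00354) that turned to -2.03 with the slide term. Members of the miR-30 family were higher by small amounts, although with the slide term miR-30d-5p was at 0.01 and miR-30c-5p, miR-30c-2-3p and miR-30a-3p turned to -0.05, -0.53 and -0.08. The level of miR-30d-5p was 12.45, 12.40 and 12.39 at 0 Gy and 12.72, 12.76 and 12.72 at 4 Gy, with a log2 fold change of 0.32 (adjusted p = 0.00185). The same held for miR-30c-5p at 0.24 (adjusted p = 0.021), miR-30c-2-3p at 0.35 (adjusted p = 0.0406) and miR-30a-3p at 0.28 (adjusted p = 0.0489). Of 21 alternative settings, miR-30d-5p passed in the same direction in 17, miR-30c-5p in 11, miR-30c-2-3p in 7 and miR-30a-3p in 6. Members that did not pass include miR-30a-5p at 0.16, miR-30b-5p at 0.17, miR-30e-5p at 0.09, miR-30c-1-3p at 0.18 and miR-30e-3p at 0.12. In each of these, all 3 irradiated lungs nevertheless lay above all controls. The epithelial miR-182-5p (0.29, adjusted p = 0.0219, and -0.22 with median scaling) and miR-542-5p (0.28, adjusted p = 0.0361) complete the group of 8. These last passed in the same direction in 10 and 7 of the 21 settings.

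The 19 remaining higher miRNAs were dim. Their mean levels ran from 5.21 to 6.14 at 0 Gy and from 5.58 to 6.56 at 4 Gy, with fitted log2 fold changes of 0.25 to 0.58. In 7 of them no control and at least 1 irradiated lung was above background, which allows only bounds of at least 1.02-fold to at least 1.16-fold. All 3 irradiated lungs were above background in 4 of the 7, while miR-7085-3p was so in 2 and miR-344b-3p and miR-7067-3p, which have the lowest bounds, in 1. For miR-7085-3p, miR-344b-3p and miR-7067-3p the irradiated mean includes values not above background, so their bounds are not firm. The 4 Gy means of miR-344b-3p and miR-7067-3p, 5.72 and 5.71, lay below the lowest signals counted as above background in control mice 1 and 11 (5.75 and 5.78). In 8 no array of either dose was above background, and no fold is given. Those among the 10 largest increases, besides miR-34a-3p, were miR-151-3p (at least 1.13-fold), miR-7018-5p (at least 1.12-fold) and miR-7085-3p (at least 1.1-fold), with miR-3102-3p and miR-712-5p at 0.42 and 0.41 on the fitted log2 scale. For miR-705 and miR-101a-5p no array of either dose was above background. None of these directions is firm: with median scaling miR-151-3p, miR-7018-5p, miR-7085-3p, miR-3102-3p and miR-712-5p turned to -0.45, -0.45, -0.46, -0.34 and -0.20.

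Complete separation of the doses was common in 1 direction. All 3 irradiated mice were above all 3 controls in 120 miRNAs (28.7% of those tested), and below them in 31 (7.42%). All 18 of the lower miRNAs that passed are in the second group. A higher miRNA with separated doses is thus one of many in this comparison.

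The leukocyte list holds miRNAs abundant in blood-derived cells, and it had the most members that passed among the lists examined. Of its 8 members, all tested and all above background on all 6 arrays, 6 fell and none rose, beside 4.31% lower among all miRNAs tested. They were both arms of miR-142a, miR-150-5p, miR-223-3p, miR-155-5p and miR-146a-5p, the last a brake on innate immune signalling (-0.23, adjusted p = 0.0406, and 0.25 with all-probe scaling). The other 2 were miR-342-3p at -0.19 (adjusted p = 0.131) and miR-181a-5p at 0.12 (adjusted p = 0.22). Of 21 alternative settings, miR-146a-5p passed in the same direction in 8 and miR-155-5p in 16. The median of the list was -0.44. Lists and members were chosen with earlier results of these data known, so the counts of the lists are descriptions and not tests.

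The chromosome 14 cluster that begins with miR-17, and its paralogs, are known to promote proliferation. Of 9 tested members of the list 3 fell and none rose, beside 4.31% lower among all miRNAs, with a median of -0.17. Those that fell were miR-92a-3p (-0.23, adjusted p = 0.03), miR-18a-5p (-0.21, adjusted p = 0.0328) and miR-19b-3p (-0.18, adjusted p = 0.032). With all-probe scaling these 3 were at 0.25, 0.19 and 0.33. They passed in the same direction in only 8, 9 and 8 of 21 alternative settings. The paralogs in the introns of Mcm7 stayed near 0: miR-106b-5p at -0.03, miR-93-5p at -0.01 and miR-25-3p at -0.03. The list did not hold miR-20b-5p, from the X-linked paralog cluster, which fell as well (-0.29, adjusted p = 0.021, and 0.15 with all-probe scaling). Of 6 tested miRNAs with the seed of miR-15 and miR-16, miR-15b-5p (-0.25, adjusted p = 0.0328) and miR-16-5p passed. The first lies on chromosome 3 within the bounds of Smc4, whereas the mature miR-16-5p comes both from that cluster and from a locus on chromosome 14 within the bounds of Dleu2, and the array cannot tell them apart. Of the others, miR-15a-5p was at -0.02, and miR-195a-5p, miR-322-5p and miR-497a-5p lay between 0.00 and 0.08. With all-probe scaling miR-15b-5p and miR-16-5p were at 0.25 and 0.30. They passed in the same direction in 10 and 8 of 21 alternative settings, and miR-20b-5p in 14.

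Lists of other cell types held no miRNA that passed, although miR-182-5p, which is not on the epithelial list, did. Endothelial miR-126a-3p and miR-126a-5p were at -0.05 and -0.08. The 9 lung epithelial and ciliated miRNAs had a median of 0.20, with miR-200c-3p at 0.20 (adjusted p = 0.071) and miR-375-3p at 0.26 (adjusted p = 0.113). The 6 smooth muscle and fibroblast miRNAs had a median of 0.05, and miR-21a-5p among them was at -0.03. The 3 hepatocyte miRNAs had a median of 0.19, and among them miR-122-5p was high in 4 Gy mouse 24 alone, as given above. The 9 tested members of the let-7 list had a median of -0.01 and none passed. The list did not hold let-7k, which has the same seed, was at 0.28 and did not pass.

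The 4 tested erythroid miRNAs did not pass either. The red-cell miRNA miR-451a differed by 0.08 (adjusted p = 0.714), miR-144-3p by -0.02, miR-144-5p by 0.08 and miR-486a-5p by 0.34 (adjusted p = 0.186). All 4 were above background on all 6 arrays, and the median of the list was 0.08.

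**Figure D3:**
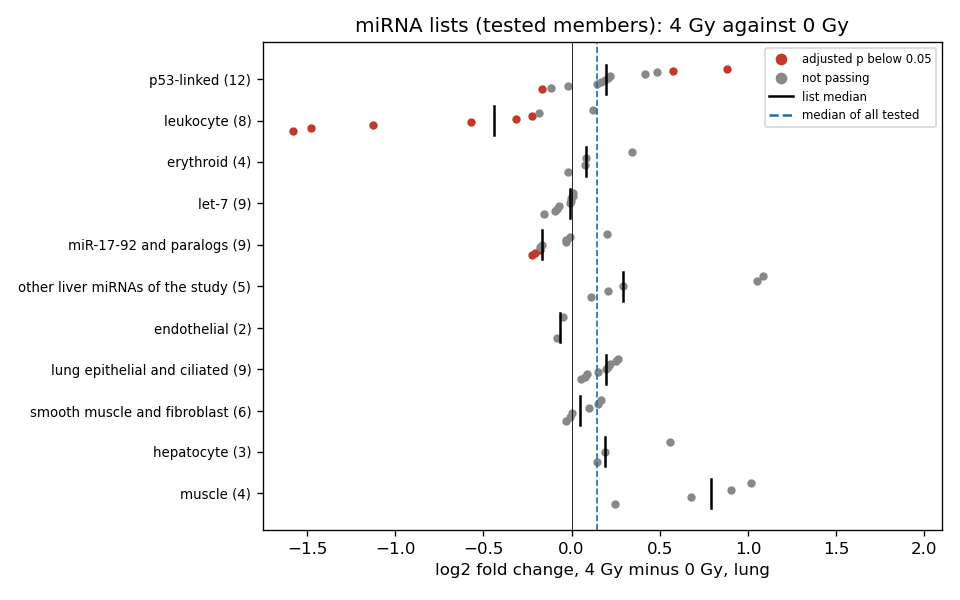
Log2 fold change (4 Gy minus 0 Gy, horizontal axis) of each tested member of the miRNA lists (vertical axis), 1 point per miRNA, with the list's median as a black bar and the median of all tested miRNAs (0.15) as a dashed line. The leukocyte list has 6 members that passed, all lower, while no member of the erythroid, let-7, endothelial, lung epithelial, smooth muscle, hepatocyte or muscle list passed.

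Several large differences did not pass, with wide spreads among the controls. The largest of all was that of miR-206-3p, a skeletal muscle miRNA chosen here after its values were seen, at 2.81 (SE 1.58, adjusted p = 0.208). Its control values were 5.00, 8.91 and 4.90, and its 4 Gy values 8.68, 9.03 and 9.54, so control mouse 11 stood with the irradiated mice and away from the other 2 controls. The muscle miRNA miR-1a-3p had the same arrangement, with 11.06, 12.12 and 11.37 at 0 Gy and 12.55, 12.13 and 12.59 at 4 Gy (0.91, adjusted p = 0.169). So did miR-133a-3p, with 9.57, 10.82 and 9.87 against 11.26, 10.77 and 11.27 (1.02, adjusted p = 0.147). The squamous epithelial miRNA miR-205-5p, also picked after its values were seen, read 6.82, 8.54 and 6.09 in controls and 7.69, 8.88 and 8.91 at 4 Gy (1.34, adjusted p = 0.287). The cardiac miR-208a-3p differed by 0.68 (adjusted p = 0.164) and was above background in 1 control. The muscle list as a whole (4 tested, none passing) had a median of 0.79. The controls lay closer together for miR-149-5p, at 5.99, 6.27 and 5.89 against 6.88, 6.50 and 6.58, and it missed the threshold narrowly (0.60, adjusted p = 0.0542). Whether the amount of muscle or airway tissue taken with each lung differed was not tested.

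The study names further miRNAs in liver beside those of the miR-34a, leukocyte and other lists above, and 5 of these 7 were tested in lung. Among them miR-8110 read 9.19, 9.23 and 8.93 at 0 Gy and 10.19, 10.25 and 10.05 at 4 Gy. The doses did not overlap, and the log2 fold change was 1.05 with adjusted p = 0.114. The model shares 1 estimate of spread over all doses, and the SD of miR-8110 was 0.17 at 0 Gy and 0.10 at 4 Gy but 0.79 at 2 Gy, 0.81 at 8 Gy and 0.83 at 12 Gy. With only the 6 arrays in the model, its log2 fold change was 1.08 (adjusted p = 0.0056), and it joined the called miRNAs as the one that was higher. The other members were miR-211-3p at 1.08 (adjusted p = 0.114), miR-5126 at 0.29, miR-3102-5p at 0.21 and miR-3960 at 0.11, and the median of the 5 was 0.29.

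The remaining doses put 4 Gy in its place on the dose scale. Every dose shares the same 3 controls, so the comparisons with 0 Gy are given side by side only. At 1 Gy, 6 miRNAs passed (1.44%), at 2 Gy 107 (25.6%), at 4 Gy 45, at 8 Gy 73 (17.5%) and at 12 Gy 54 (12.9%). The 1 Gy arrays lay on the control slide, so that comparison lies within 1 slide, whereas those of 2 Gy and above cross slides. Of the 6, 5 are the miRNAs with the largest changes among those that passed at 4 Gy: miR-34a-5p at 0.49 (adjusted p = 7.37e-04), miR-142a-5p at -0.76 (adjusted p = 0.0019), miR-142a-3p at -0.70 (adjusted p = 0.00361), miR-150-5p at -0.49 (adjusted p = 0.0137) and miR-130b-3p at -0.57 (adjusted p = 0.00808). The remaining one was miR-135a-1-3p at -0.52.

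Against 0 Gy, the log2 fold change of miR-34a-5p was 0.49 at 1 Gy, 0.83 at 2 Gy, 0.88 at 4 Gy, 1.07 at 8 Gy and 1.05 at 12 Gy. In the same order, that of miR-142a-5p was -0.76, -1.34, -1.58, -1.70 and -1.90, and that of miR-142a-3p was -0.70, -1.38, -1.47, -1.55 and -1.59. Most of the change was present by 2 Gy, though the 2 Gy arrays also lay on another slide than the 0 and 1 Gy arrays. For miR-150-5p the values were -0.49, -0.80, -1.13, -1.18 and -1.40, and for miR-130b-3p they were -0.57, -0.52, -0.81, -0.87 and -0.97. The 2 Gy arrays shared the slide of 4 Gy mouse 4, and all 8 and 12 Gy arrays that of mice 14 and 24. A step between 1 and 2 Gy therefore cannot be told apart from slide.

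Neighbouring doses were then compared directly, without the controls. Between 4 and 2 Gy no miRNA passed in limma (0% of those tested), 34 had an unadjusted p below 0.05, and the smallest adjusted p was 0.261. The difference in miR-150-5p was -0.33 (unadjusted p = 0.00429). Starting from the scanner software's processed signal instead, 2 miRNAs passed. Between 8 and 4 Gy no miRNA passed (0%), 6 had an unadjusted p below 0.05, and the smallest adjusted p was 0.994.

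**Figure D4:**
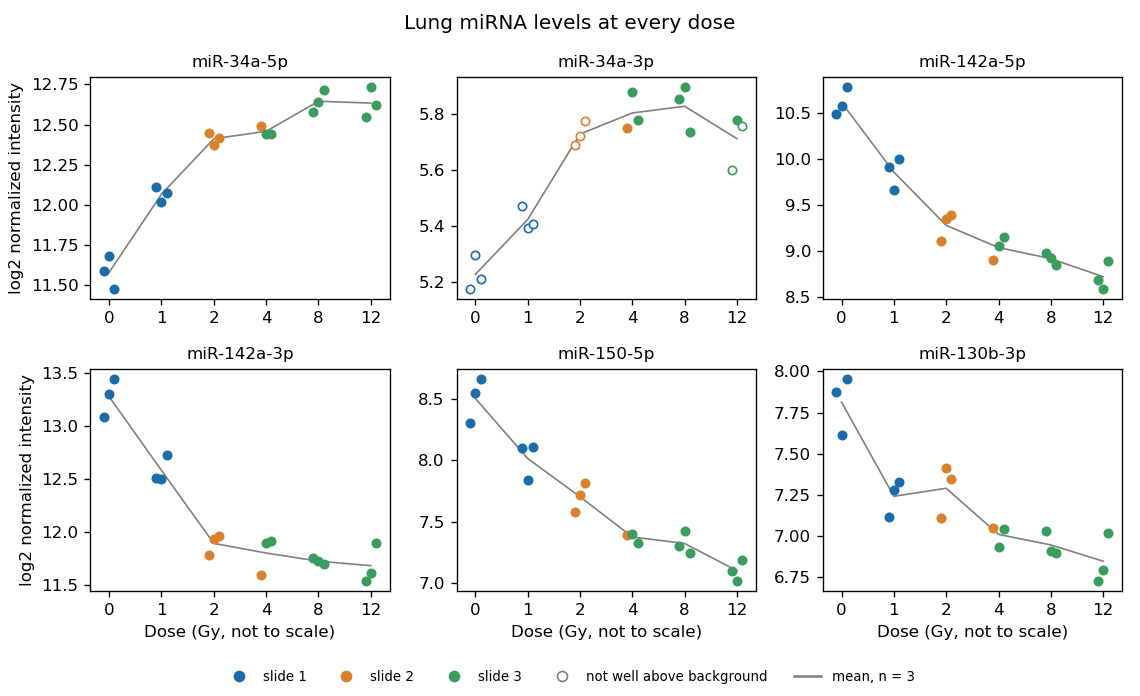
Log2 normalized intensity in lung against dose (0, 1, 2, 4, 8 and 12 Gy, evenly spaced and not to scale) for 6 miRNAs, 1 point per mouse coloured by slide with a line through the means of 3 mice. The step from 0 to 2 Gy is larger than the step from 4 to 12 Gy for miR-34a-5p, miR-142a-5p and miR-142a-3p. The slide changes between 1 and 2 Gy.

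Liver RNA of mice with the same numbers and doses allows a test of whether the response to 4 Gy differed between the tissues. In a model over all 36 miRNA arrays, 4 of 429 miRNAs differed (0.932%), 3 with a more negative and 1 with a more positive change in lung. The first was miR-142a-3p, with -1.50 in lung and -0.58 in liver (adjusted p = 0.0155 in liver), a difference of -0.92 (SE 0.18, adjusted p = 0.00379). It was above background on all 6 arrays of each tissue. The other 3 were below background in liver on all 6 arrays: miR-150-5p, with a difference of -0.75 (adjusted p = 0.00317), miR-130b-3p, with -0.62 (adjusted p = 0.0253), and miR-34a-3p, with 0.57 (adjusted p = 0.0364). For these, a change in liver could not be measured, and the difference is one between a measured tissue and an unmeasured one. With only probes above background on all 12 arrays, 1 miRNA passed.

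For miR-34a-5p and miR-142a-5p no difference between the tissues passed. The change of miR-34a-5p was 0.88 in lung and 1.19 in liver (adjusted p = 3.02e-06 in liver), a difference of -0.31 (SE 0.20, adjusted p = 0.682). That of miR-142a-5p differed by -0.87 (SE 0.43, adjusted p = 0.536). A p above the threshold does not show that the tissues responded alike.

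**Figure D5:**
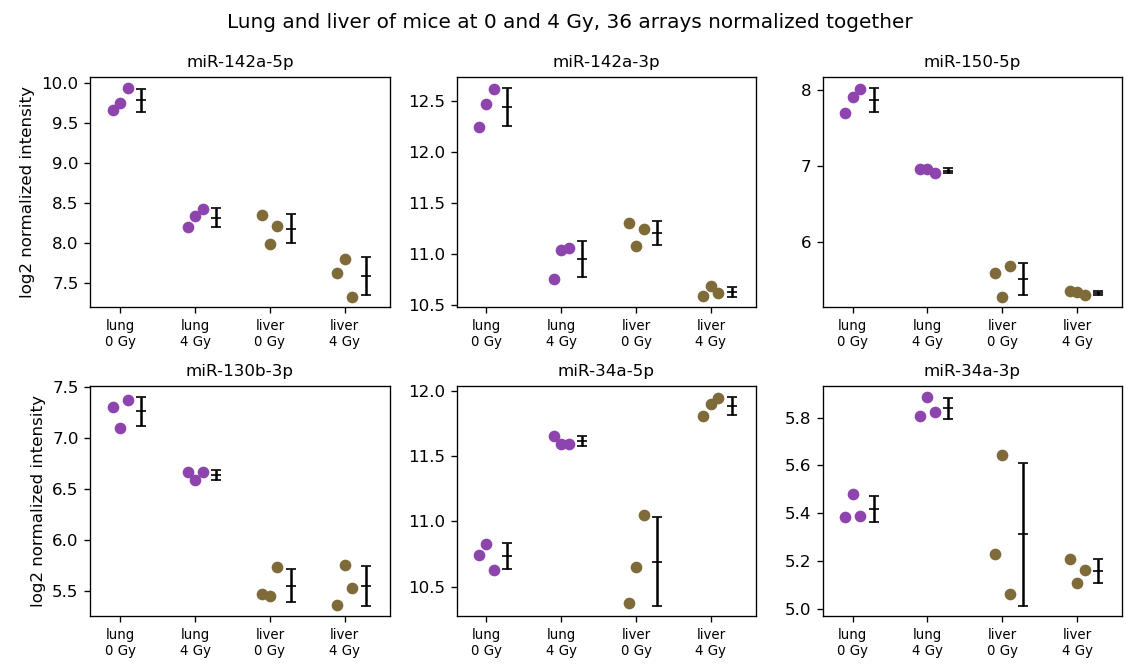
Log2 normalized intensity of 6 miRNAs in lung and liver at 0 and 4 Gy, 1 point per mouse with the mean ± SD of 3 mice, from 36 arrays normalized together. miR-142a-3p is lower at 4 Gy in both tissues with the larger step in lung (-1.50 against -0.58), and miR-34a-5p is higher in both.

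The mRNA arrays of the same lungs give the markers of the cell types that carry these miRNAs. Over all probes, 958 of 43979 passed (2.18%), 280 higher (0.637%) and 678 lower (1.54%), and the median log2 fold change was 0.04. The dose groups lie on different slides here too. Of the B cell genes, 12 of 14 tested fell and none rose, with a median of -2.70, and their summed linear level ran from 22590 to 48610 at 0 Gy and from 6118 to 7941 at 4 Gy. With slide as a random block 10 of the 14 fell. The B cell receptor subunit Cd79a read 7.63, 9.15 and 8.69 at 0 Gy and 5.71, 5.42 and 5.29 at 4 Gy, a log2 fold change of -3.02 (adjusted p = 3.87e-05). Of the T cell genes, 10 of 13 fell, with a median of -2.17, and their summed level ran from 15800 to 62290 at 0 Gy and from 6977 to 8631 at 4 Gy. With the slide block 5 of the 13 fell. The T cell receptor subunit Cd3e was at -2.53 (adjusted p = 9.73e-04), and its control values of 10.33, 10.96 and 12.46 were far apart, while the 4 Gy values were 8.62, 8.86 and 8.68.

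Neutrophil genes did not move with them as a group. Their median was 0.24, and single genes went both ways, from -2.49 for Camp (adjusted p = 0.111) to 1.70. Of 14 tested, Stfa2l1 rose (1.70, adjusted p = 0.0107) and none fell, none passed with the slide block, and the summed level was 72620 to 86620 at 0 Gy and 83930 to 87540 at 4 Gy, while the myeloid miR-223-3p fell. Erythroid genes fell in 5 of 8, also with the slide block, beside 1.54% lower among all mRNA probes tested. Alas2, the first enzyme of haem synthesis in red cells, was at -6.45 (adjusted p = 7.27e-07). The summed erythroid level was 499400 to 544900 at 0 Gy against 47690 to 96990 at 4 Gy, beside the miR-451a difference of 0.08. That sum is mostly globin: at 0 Gy Hba-a1, Hba-a2 and Hbb-bt had means of 17.42, 17.46 and 17.19, and Alas2 13.65. Hemgn (0.14), Klf1 (0.12) and Epb42 (-0.62) did not pass, and Klf1 and Epb42 were not above background in any control. Lung epithelial genes (7 tested), endothelial genes (4) and hepatocyte genes (5) held none that passed, the last with the high values of mouse 24 given above. The part of cell numbers in the miRNA changes was not tested.

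Targets of p53 rose in 14 of 21 tested genes, beside 0.637% higher among all mRNA probes tested. None fell, and the median of the list was 0.93. With slide as a random block 5 rose, and without mouse 24, 9. The cell cycle inhibitor Cdkn1a read 11.40, 11.82 and 11.52 at 0 Gy and 14.09, 14.13 and 14.01 at 4 Gy, a log2 fold change of 2.50 (adjusted p = 3.97e-06). The death receptor gene Eda2r was at 3.74 (adjusted p = 4.14e-08) and the stress cytokine Gdf15 at 3.31 (adjusted p = 8.97e-08). For Cdkn1a, as for miR-34a-5p, every irradiated lung lay above every control.

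Of 7 tested genes that host miRNAs, Mcm7, a subunit of the replicative helicase, fell by 0.80 (adjusted p = 0.0201), although the 3 miRNAs in its introns stood between -0.03 and -0.01, and it did not pass with the slide block. Evl, which hosts miR-342, was at -0.47 (adjusted p = 0.141), and Egfl7, which hosts miR-126a, at -0.06 (adjusted p = 0.91). When slide was treated as a random block in the mRNA model, 36 probes of these lists passed in place of 63.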

How the data were processed

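Total RNA of lung and liver was hybridized by the authors to 1-colour arrays, and the deposited intensity values give, per spot, the median over pixels inside the spot and in its surround, from Agilent Feature Extraction 11.5.1.1, not normalized, together with that software's processed and total gene signals. The authors also deposited a table of linear intensity values whose scaling is not given in the sources used here. Intensities were corrected with normexp (offset 0), control and outlier spots were removed, and the 18 lung arrays were quantile-normalized and put on the log2 scale. A probe was well above background where at least 0.5 of its spots were, and probes that were so on at least 1 array were averaged per miRNA. A limma 3.58.1 model (R 4.3.3) with 6 dose groups and empirical Bayes moderation gave all adjusted p values (Benjamini-Hochberg over the miRNAs tested). The steps follow the study's methods, and the code was tested on simulated data. mRNA probes (34566 of 56605 with a gene symbol) were matched by RefSeq accession, the brightest standing for its gene, and 354 of 418 miRNAs had a RefSeq sequence. Named are the miRNAs past both thresholds, the 10 largest in each direction that passed, the 5 largest separated in each direction, and the members of the lists. The members and lists were chosen with earlier results of these data known. Array number limits the precision. Same-numbered lung and liver arrays have the same dose, and their deviations from group means correlated at -0.211 to 0.121.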

Additional observations from a re-analysis of the deposited data

Results flagged for a closer look

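The change at 4 Gy differed between lung and liver for 4 miRNAs by the test of the difference itself (limma, adjusted over 429 miRNAs). Lung minus liver was -0.92 for miR-142a-3p, -0.75 for miR-150-5p, -0.62 for miR-130b-3p and 0.57 for miR-34a-3p on the log2 scale. Among them miR-142a-3p was above background in both tissues, and the other 3 were not above background on any of the 6 liver arrays. The same number, 4, differed with slide as a fixed term, which can be estimated once the liver arrays, some of them on the same slides as lung arrays, are in the model. An equal number does not show that the same miRNAs passed.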

How the results depend on the processing

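Slide as a fixed term cannot be estimated for 4 against 0 Gy within lung. The counts of called miRNAs and of those with adjusted p below 0.05 (3 and 45, 27 higher and 18 lower) became 5 and 53 (9 and 44) from the processed signal scaled to detected probes, 0 and 0 (34 at unadjusted p below 0.05) scaled to all probes, 13 and 209 (7 and 202) with median scaling, 29 and 52 from the total gene signal and 8 and 40 (8 and 32) from the authors' values. They were 3 and 75 (51 and 24) with no filter, 3 and 29 with the brightest probe, 6 and 50 per probe, 4 and 7 with only the 6 arrays, 3 and 98 (78 and 20) with slide as a random block, and 3 to 5 and 12 to 129 leaving out a mouse. Without control mouse 11 they were 5 and 129, and without control mouse 21 or 4 Gy mouse 4, 14 or 24 the second count was 16, 12, 13 and 16. Slide as a random block had a fitted correlation within slide of -0.114. Arrays of 1 slide were thus not treated as alike, and its higher count does not show that slide was allowed for. Chosen after seeing the data, the 36-array model gave 2 and 8 without and 13 and 18 with a slide term, and the sets of mouse numbers (1 to 6, 11 to 16, 21 to 26) as a replicate block gave 3 and 23 (11 and 12). Deviations of the 3 pairs of one set correlated at 0.248, 0.0114 and -0.00546, and those of pairs from different sets at -0.286 to 0.22. So few pairs cannot show whether a set shares more than a number. Scaling moved the median of all miRNAs from -0.27 (median scaling) to 0.46 (all probes). Both arms of miR-142a, miR-150-5p and miR-130b-3p passed in 20 of 21 settings and miR-34a-5p in 19, lost with all-probe scaling (adjusted p = 0.393) and, for miR-34a-5p, with the slide term (adjusted p = 0.271). The cause was not tested. Directions turned for some smaller changes. Scaled to all probes, miR-146a-5p was at 0.25, miR-15b-5p 0.25, miR-16-5p 0.30, miR-18a-5p 0.19, miR-19b-3p 0.33, miR-20b-5p 0.15, miR-340-5p 0.084, miR-3473g 0.0049 and miR-92a-3p 0.25. With median scaling miR-101a-5p was at -0.56, miR-149-5p -0.0094, miR-151-3p -0.45, miR-182-5p -0.22, miR-3102-3p -0.34, miR-34a-3p -0.32, miR-7018-5p -0.45, miR-705 -0.55, miR-7085-3p -0.46 and miR-712-5p -0.20. With no filter miR-151-3p was at -0.026. From the authors' values miR-101a-5p was at -0.56, miR-151-3p -1.55, miR-182-5p -0.17, miR-3102-3p -0.88 and miR-7018-5p -0.11. With the slide term miR-19b-3p was at 0.048, miR-30a-3p -0.076, miR-30c-2-3p -0.53, miR-30c-5p -0.050, miR-6412 -2.03, miR-7018-5p -0.22, miR-7085-3p -0.54 and miR-712-5p -1.33. Between 4 and 2 Gy the processed signal gave 2 in place of 0. Of lung minus liver differences, 4 became 1 with probes above background on all 12 arrays and 2 to 5 leaving out a mouse, and mouse as a replicate block, a pairing of the tissues, gave 4 and changed no other count. The mRNA list probes that passed went from 63 to 36 with slide as a random block and were 47 to 61 leaving out a mouse.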
